A study of Homo sapiens with 18 samples.

Results

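The mitosis and G2/M genes described here were 42 protein-coding genes whose products carry cells from G2 through mitosis and cytokinesis. They were picked by name, from what their products do, and each was found in both deposited count tables by matching its Ensembl identifier to a GENCODE symbol, 42 of the 61541 genes listed. All 42 passed the filter on low counts in both tables. A549, a non-small cell lung cancer (NSCLC) line of lung adenocarcinoma origin, was grown in high-glucose DMEM with 10% serum and exposed to sodium propionate (SP), the salt of a short-chain fatty acid, to ask how propionate alters gene expression. RNA was sequenced as paired ends.

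All 6 groups were unmodified A549 wild-type cells. SP was given at 5 mM for 3 h (SP_3H), 24 h (SP_24H), 3 days (SP_3D) or 12 days (SP_12D), and untreated cells were taken at 24 h (Control_24H) and at 3 days (Control_3D). Each group had 3 libraries, R1 to R3, 18 in all, and the 9 libraries of the first day and the 9 of the later times were counted in separate tables. SP_3H and SP_24H were compared with Control_24H, and SP_3D and SP_12D with Control_3D, so each pair of comparisons shares its control libraries. The 12-day libraries had a 3-day control, so at 12 days SP and the longer culture cannot be told apart, and the 3 h libraries were read against a 24 h control. The labels do not say that libraries of a group came from separate cultures, so p-values measure only the spread between these libraries.

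Cells enter mitosis when cyclin-dependent kinase 1, bound to cyclin A or cyclin B, is switched on by CDC25 phosphatases and Polo-like and Aurora kinases. The spindle then captures chromosomes at their kinetochores, a checkpoint holds anaphase back until all are attached, and the anaphase-promoting complex (APC/C) with its activator CDC20 destroys cyclin B and securin. The mRNAs of most of these factors are made in waves late in the cell cycle, under the transcription factor FOXM1, B-Myb and the MuvB complex, so in bulk RNA their level follows the share of dividing cells. In such data, fewer cycling cells and less mRNA per cycling cell cannot be told apart.

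Library totals ran from 14187401 to 43765330 counts. The epithelial keratins and aldehyde dehydrogenase known for A549 were abundant. KRT8 was at 3818 to 8418 CPM (counts scaled to the library total) in the 18 libraries, KRT18 at 1952 to 4553 CPM and ALDH1A1 at 4178 to 9313 CPM. The lowest of the 12 A549 markers listed were EPCAM at 5.54 to 68.1 CPM and CDH1 at 18.6 to 426 CPM. Of 12 markers of other cell types, CD3E was at 0, PTPRC stayed at or below 0.0971 CPM and PECAM1 at or below 0.680 CPM, while COL1A1 reached 90.4 CPM. Libraries differed in 2 ways that touch the members. In the first-day table, members of low GC content varied widely between libraries of a group. In the later table, SP_12D R3 stood apart: it was the lowest of the 9 libraries for 41 of the 42 members (97.6%), against 14.0% of all 17775 genes tested, and lay by a median of −1.12 log2 CPM from the mean of R1 and R2, against 0.01 over all genes. Counts of members and the values named at 12 days are therefore given with and without SP_12D R3, which also enters the 3-day test through the shared estimate of spread.

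For the members, CPM were further scaled by TMM, edgeR's factor for library composition. At every time some of the members were lower in SP-treated cells, and none passed the test as higher in any of the 4 comparisons. In the text that follows, lower and higher mean an adjusted p under 0.05 in edgeR's quasi-likelihood test across all genes of a table, and fold changes are log2 values with their standard error (SE). At 3 h 5 of 42 members were lower (11.9%), against 4.11% of all genes tested, with a median log2 fold change of −0.26 over the members and −0.00 over all genes. At 24 h 16 were lower (38.1%, against 12.0% of all genes), with a median of −0.60 and −0.01 over all genes. At 3 days 27 were lower (64.3%, against 23.3%), with a median of −0.70 against −0.02. At 12 days 32 were lower (76.2%, against 23.4%), with a median of −0.92 against −0.00. Of all genes, 7.39% were higher at 3 h, 16.8% at 24 h, 25.2% at 3 days and 26.4% at 12 days. The 0 members higher can be set beside those shares. Single libraries moved the counts of lower members, and those of lower genes over all. The 3 h count was 3 without Control_24H R1, SP_3H R1, SP_3H R2 or SP_24H R3 (568 of 18104, 451 of 18062, 320 of 17816 and 508 of 17709 genes). The 24 h count was 8 without SP_24H R2 (924 of 17701 genes), 9 without SP_24H R3 (1083 of 17709) and 30 without Control_24H R3 (3093 of 17861). The 3-day count was 17 without Control_3D R2 (3645 of 18218 genes). The 12-day count was 21 without Control_3D R1 or R3 (3509 of 18116 and 3701 of 18172 genes). DESeq2 also called 0 members higher in each comparison. Over all genes it called 1462 and 3026 of 36979 higher at 3 and 24 h, and 4421 and 4572 of 39415 at 3 and 12 days. At an unadjusted p under 0.05 in edgeR, 10, 24, 29 and 35 members differed in either direction at the 4 times in order. The share of all genes at that threshold is not given here, so these 4 counts do not set the members apart.

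**Figure D1:**
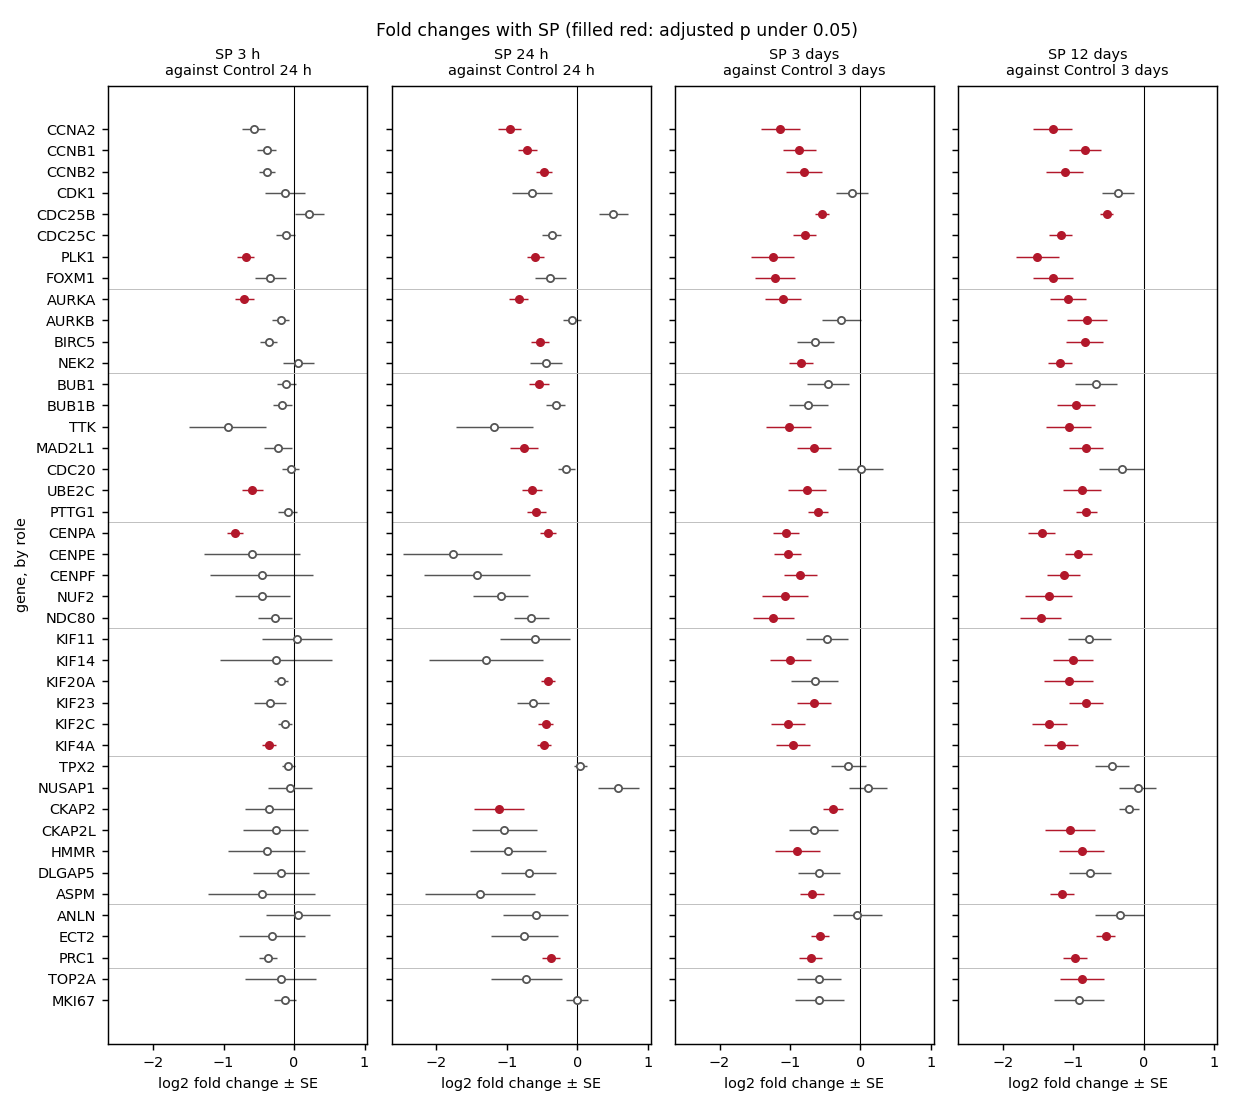
Log2 fold change (x axis) of each of the 42 members (y axis, grouped by role) in SP-treated against control libraries in 4 panels by time, with horizontal bars for the standard error; filled red points passed an adjusted p under 0.05. Points lie left of 0 for 38, 39, 40 and 42 of the 42 members at the 4 times.

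The same picture came from the libraries one by one. At 3 days every SP library lay below every control library for 38 members (90.5%, against 30.7% of all genes), and at 12 days for 37 (88.1%, against 27.3%). At 24 h this held for 16 members (38.1%, against 19.8%) and at 3 h for 11 (26.2%, against 11.7%). Taking the median over members of each library's level as a percentage of the control mean, the 3 SP_3D libraries stood at 62.0%, 59.6% and 61.3%, close to each other. The SP_12D libraries stood at 59.5%, 69.5% and 30.1%, the SP_24H libraries at 76.9%, 61.0% and 61.9%, and the SP_3H libraries at 82.9%, 68.2% and 97.5%. Reads on the 42 members made up 0.366% to 0.403% of the Control_3D libraries and 0.240% to 0.248% of the SP_3D libraries. In SP_12D they made up 0.233%, 0.266% and 0.132%. In the first-day table the shares overlapped, at 0.522% to 0.821% in Control_24H, 0.487% to 0.712% in SP_3H and 0.435% to 0.594% in SP_24H.

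**Figure D2:**
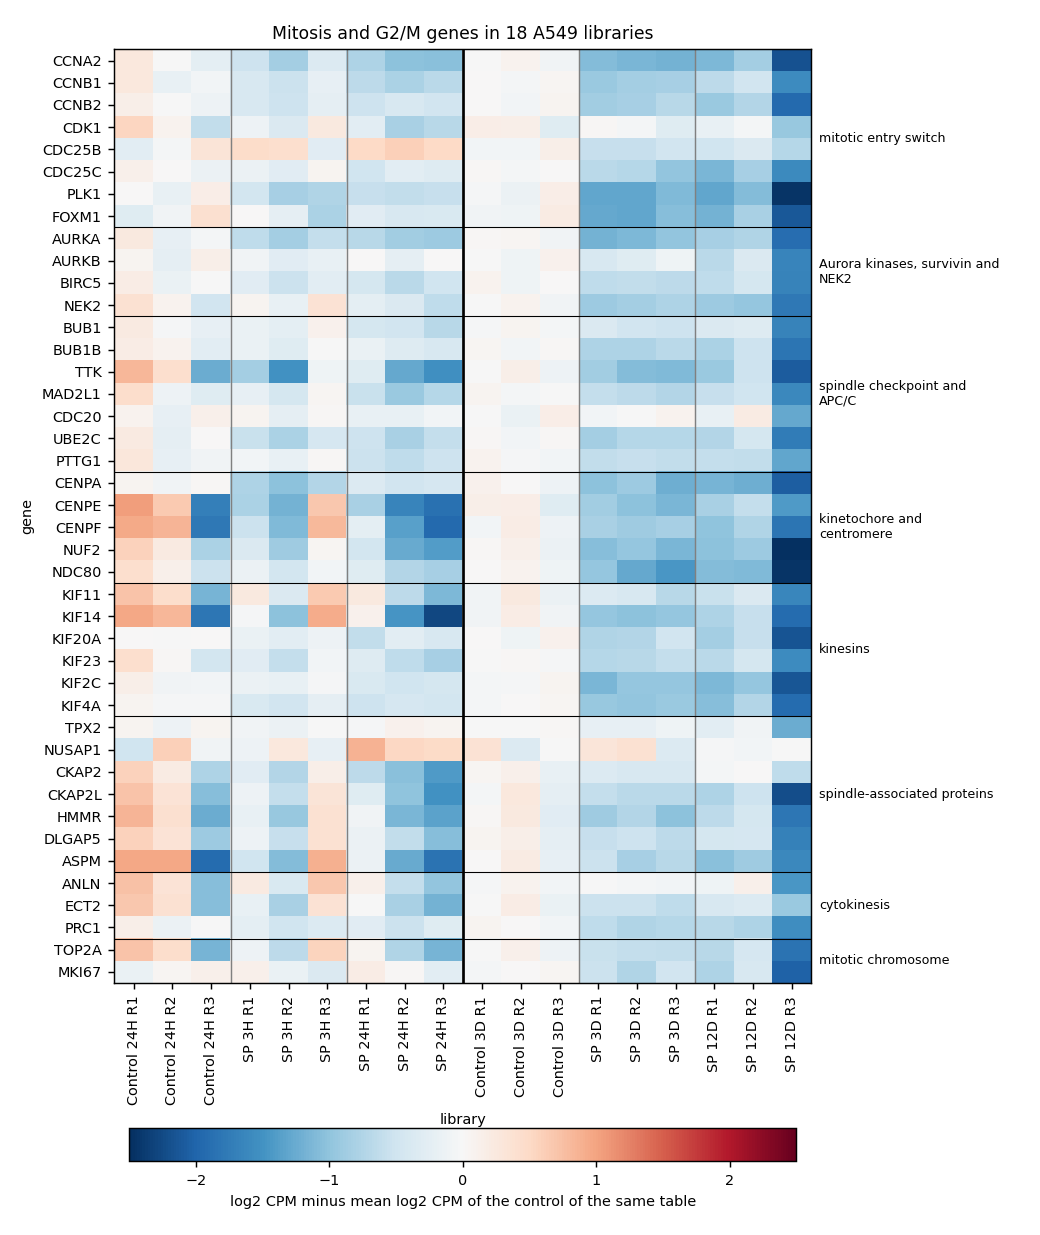
Log2 CPM of the 42 members (rows of the map, by role) in the 18 libraries (columns), minus the mean of the control group of the same table, in log2 units. The SP_3D and SP_12D columns are below their control for most members, SP_12D R3 is the lowest of its 9 libraries for 41 of them, and the control columns of the first-day table are themselves uneven.

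Without SP_12D R3 the median 3-day change did not move and its SE shrank. The median stayed at −0.70, the median SE over members fell from 0.264 to 0.083, and 38 of 42 members were lower (90.5%) against 29.0% of all genes. The 11 members called at 3 days only without that library were AURKB, BIRC5, BUB1, BUB1B, CKAP2L, DLGAP5, KIF11, KIF20A, MKI67, TOP2A and TPX2, and no call was lost. At 12 days the change itself was smaller without that library. The median was then −0.64 in place of −0.92, while 37 members were lower (88.1%, against 27.6% of all genes), the added ones being BUB1, DLGAP5, KIF11, MKI67 and TPX2, and no call was lost. The study's own stricter rule was an adjusted p under 0.0001 with at least a 2-fold change. By it, 0 members were lower at 3 days with all libraries in edgeR, against 1.86% of genes. DESeq2 called 3, and its share of all genes under that rule is not given here. At 12 days 2 members passed that rule in edgeR, CENPA among them, against 2.23% of genes. Without SP_12D R3 it called 10 members at 3 days, against 2.81% of genes, and 5 at 12 days, against 3.66%.

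**Figure D3:**
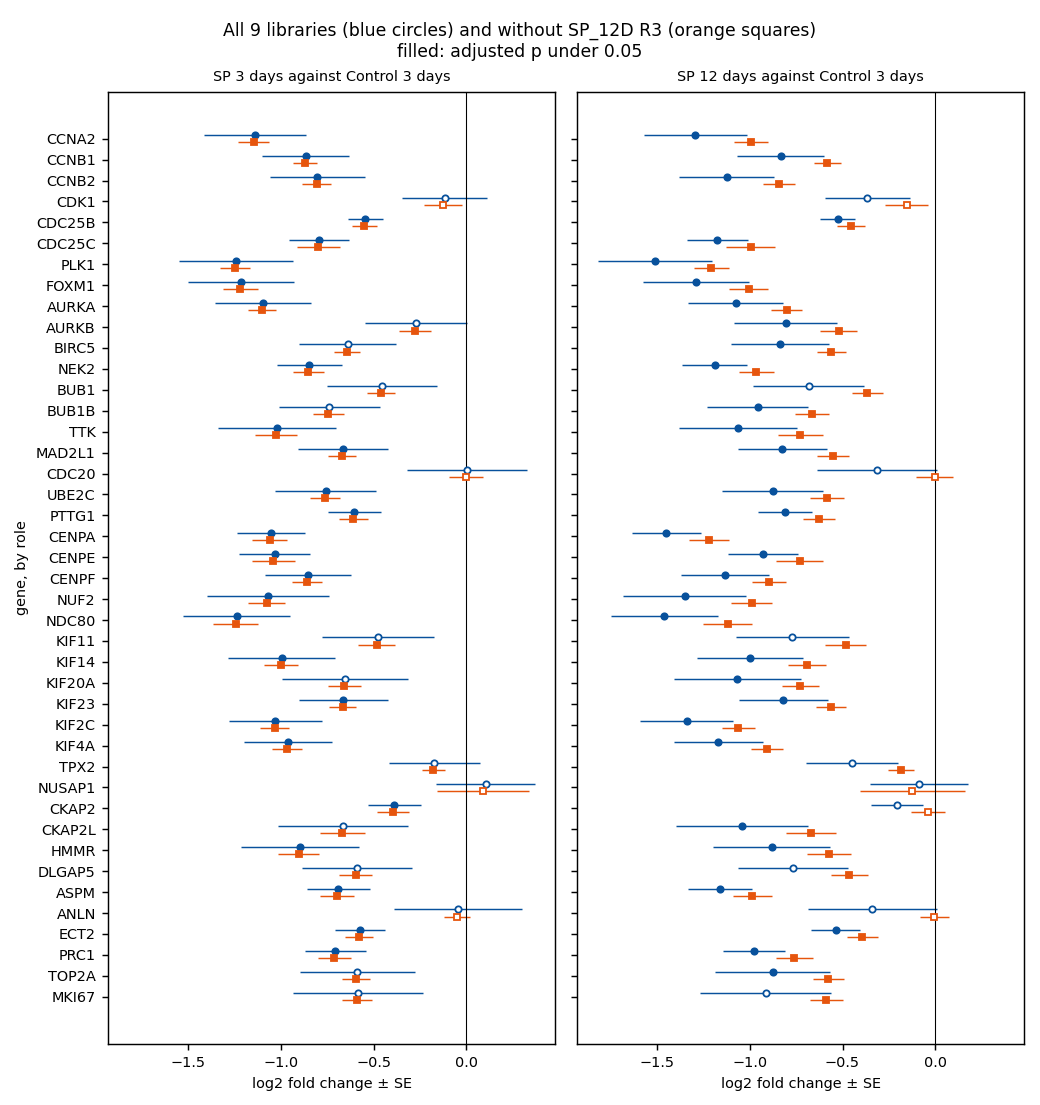
Log2 fold change with standard error (x axis) of each member (y axis) at 3 days and at 12 days, in the fit of all 9 libraries (blue circles) and in the fit without SP_12D R3 (orange squares); filled symbols passed an adjusted p under 0.05. At 3 days the pairs of symbols coincide and the bars shorten, while at 12 days the squares lie nearer to 0, with a median of −0.64 in place of −0.92.

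In the first-day table the changes of AT-rich members had wide errors. Among the 15 members with a GC content under 40%, the range over the 3 libraries of a group had a median of 1.79 log2 CPM in Control_24H, 1.13 in SP_24H and 1.02 in SP_3H. Among the 13 members over 48% GC it was 0.36, 0.24 and 0.30. CENPF, CENPE and ASPM were the clearest cases. ASPM, a spindle-pole protein, was at 194, 193 and 26.0 CPM in the Control_24H libraries, and its 24 h change of −1.38 ± 0.77 did not pass the test (adjusted p = 0.21). At 24 h 2 of the 15 low-GC members, 7 of the 14 from 40% to 48% and 7 of the 13 above were lower, with median SEs of 0.46 in the first class and 0.13 in the last. The Spearman correlation of a member's spread with its GC content was −0.73 in Control_24H, −0.76 in SP_24H and −0.67 in SP_3H over the 42 members, which share libraries, and −0.37, 0.07 and −0.01 in Control_3D, SP_3D and SP_12D.

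With a GC and length trend removed from each library, 8 members were lower at 3 h (against 9.27% of genes), 22 at 24 h (24.7%), 27 at 3 days (33.2%) and 34 at 12 days (31.9%). At 3 days BIRC5 and BUB1B gained a call with the correction, and CKAP2 and UBE2C lost theirs. At 12 days DLGAP5, KIF11 and MKI67 gained a call and AURKB lost its own. The correction moved the median of all genes from −0.01 to −0.13 at 24 h, and it turned the split of calls at 24 h from 2087 lower and 2922 higher to 4292 and 2468. The member median at 24 h was then −0.53 beside that −0.13. All genes split into 1611 lower and 1486 higher at 3 h after it (714 and 1285 before), 5898 and 3804 at 3 days (4147 and 4487 before), and 5664 and 4012 at 12 days (4166 and 4692 before). Same-numbered Control_24H and SP_24H libraries deviated together. With the replicate number as a block in a fit of those 2 groups, 29 members were lower at 24 h, against 18.2% of genes, and 1, CDC25B, was higher at 0.52 (adjusted p = 0.021). The 13 members added by the replicate block were BUB1B, CDK1, CENPE, CKAP2L, DLGAP5, ECT2, HMMR, KIF14, KIF23, NDC80, NEK2, NUF2 and TTK.

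**Figure D4:**
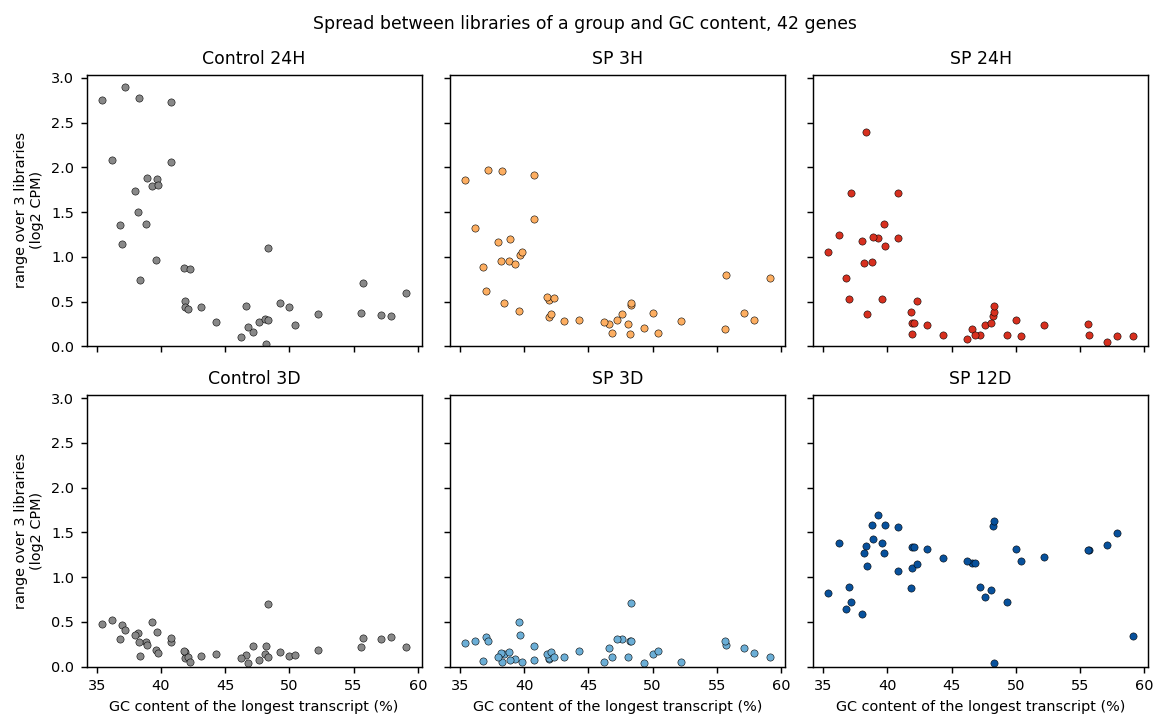
Range of log2 CPM over the 3 libraries of a group (y axis) against GC content in percent (x axis) for the 42 members, in 6 panels, 1 per group. In the first-day groups the members under 40% GC spread most, with medians of 1.79, 1.13 and 1.02 log2 CPM, while in SP_12D the range is wide at every GC content.

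Because the members moved together, their promoters were read for the sequence elements known for late cell-cycle genes, the CHR element (TTTGAA or TTCGAA), which is bound by MuvB complexes, and the CCAAT box, which is bound by NF-Y. RefSeq promoters of build GRCh38.p14, the 250 bases before the start that RefSeq gives, were used for 36 of the 42 members and 27303 promoters in all, and both strands were searched. TTTGAA was found in 18 of the 36 (50%) and in 13.6% of all promoters. TTCGAA was found in 0 of the 36 and in 1.2% of all. CCAAT was found in 27 (75%) and in 33% of all, and a CHR element together with CCAAT in 16 (44.4%) and in 5.24% of all. A match of letters is a description and does not show that a factor was bound. The last 150 bases before the start are given for 6 members whose values are followed further on: 5 that were lower in several comparisons and CDC20, which was lower in none. The RefSeq start of CCNB1, PLK1, CENPA and KIF20A lies inside the GENCODE gene. Capitals mark CCAAT and TTTGAA on either strand, so CCAAT also appears as ATTGG and TTTGAA as TTCAAA.
CCNB1, chr5:69167000-69167149, plus strand: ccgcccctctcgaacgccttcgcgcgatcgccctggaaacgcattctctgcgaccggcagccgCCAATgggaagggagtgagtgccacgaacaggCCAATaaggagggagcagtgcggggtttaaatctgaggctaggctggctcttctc
PLK1, chr16:23678739-23678888, plus strand: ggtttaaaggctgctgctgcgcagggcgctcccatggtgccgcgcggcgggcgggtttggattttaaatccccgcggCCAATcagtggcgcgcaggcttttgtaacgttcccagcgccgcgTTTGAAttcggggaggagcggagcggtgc
CCNA2, chr4:121823884-121824033, minus strand: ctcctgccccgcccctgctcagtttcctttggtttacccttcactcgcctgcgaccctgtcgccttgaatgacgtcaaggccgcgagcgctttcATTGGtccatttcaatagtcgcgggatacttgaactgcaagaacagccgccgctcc
CENPA, chr2:26785906-26786055, plus strand: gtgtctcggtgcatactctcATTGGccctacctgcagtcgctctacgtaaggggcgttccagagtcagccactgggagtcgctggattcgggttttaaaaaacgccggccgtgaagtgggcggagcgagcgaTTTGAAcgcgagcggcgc
KIF20A, chr5:138178962-138179111, plus strand: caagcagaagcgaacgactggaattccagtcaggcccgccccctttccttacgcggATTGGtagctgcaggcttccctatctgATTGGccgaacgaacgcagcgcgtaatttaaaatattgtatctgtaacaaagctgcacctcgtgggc
CDC20, chr1:43358831-43358980, plus strand: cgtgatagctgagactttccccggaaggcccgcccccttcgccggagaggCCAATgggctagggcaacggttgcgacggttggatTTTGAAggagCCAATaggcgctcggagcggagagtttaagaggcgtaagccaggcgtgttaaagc
PLK1, CENPA and CDC20 each held TTTGAA and CCAAT in this stretch, whereas CCNB1, CCNA2 and KIF20A held CCAAT without TTTGAA or TTCGAA. Other forms of the CHR, such as the cttgaa in the CCNA2 stretch, were not searched for. A member without these letters is therefore not shown to lack a CHR. Members with and without TTTGAA were both among those that fell. At 3 days 9 of the 18 with it and 14 of the 18 without it were lower (15 and 17 without SP_12D R3), at 12 days 12 and 15 (15 and 16 without it), at 24 h 5 and 8, and at 3 h 3 and 0.

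Most genes of the switch into mitosis fell at 3 and 12 days. Of its 8 genes, 7 were lower at 3 days and 7 at 12 days, against 23.3% and 23.4% of all genes (29.0% and 27.6% without SP_12D R3), shares that also stand behind the counts of the other role groups. The medians were −0.83 and −1.15 (−0.84 and −0.92 without SP_12D R3, again 7 and 7), while 1 was lower at 3 h and 4 at 24 h, against 4.11% and 12.0% of all genes. CCNB1 (ENSG00000134057, chr5:69167135-69178245, plus strand of GRCh38), the B-type cyclin that activates CDK1, was at 154, 147 and 157 CPM in the 3 Control_3D libraries and at 80.8, 84.7 and 86.2 CPM in SP_3D. SP_12D gave 97.0, 109.7 and 51.3 CPM. All 6 treated libraries lay below all 3 controls. CCNB1 changed by −0.87 ± 0.23 at 3 days (adjusted p = 0.015), to 54.9% of control, and by −0.83 ± 0.23 at 12 days (adjusted p = 0.017), or −0.58 without SP_12D R3. On the first day it was at 374, 275 and 298 CPM in Control_24H, 239, 216 and 271 in SP_3H and 199.8, 182 and 197 in SP_24H. It was lower at 24 h (−0.71 ± 0.13, adjusted p = 0.00428), and its 3 h value of −0.39 did not pass the test (adjusted p = 0.099).

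PLK1 (ENSG00000166851, chr16:23677656-23690367, plus strand), the Polo-like kinase that drives entry and centrosome maturation, was lower in all 4 comparisons. Its Control_3D libraries were at 117, 109 and 135 CPM, the SP_3D libraries at 48.3, 48.3 and 55.9, and the SP_12D libraries at 48.6, 56.6 and 21.9. The treated range ended far below the lowest control. With all libraries this was the most negative change among the members at both times, −1.24 ± 0.31 at 3 days (adjusted p = 0.0115), to 42.3% of control, and −1.51 ± 0.31 at 12 days (adjusted p = 0.00459), to 35.1%, or −1.21 and 43.3% without SP_12D R3, where CENPA at −1.22 was the most negative. In the first-day table PLK1 was at 231, 204 and 259 CPM in Control_24H, 166, 129 and 136 in SP_3H and 155, 150.2 and 155 in SP_24H. The control libraries lay above all treated ones, and PLK1 was already down to 62.1% of control at 3 h (−0.69 ± 0.13, adjusted p = 0.008) and stood at 66.3% at 24 h (−0.59 ± 0.12, adjusted p = 0.00738). Other annotated genes cover 12.8% of its exon bases.

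CCNA2 (ENSG00000145386, chr4:121816444-121823883, minus strand), the A-type cyclin of S phase and G2, was at 161, 133 and 113 CPM in Control_24H and at 78.2, 65.9 and 65.4 in SP_24H, groups that did not overlap. It stood at 51.4% of control at 24 h (−0.96 ± 0.17, adjusted p = 0.00286). At 3 h it was at 93.8, 74.3 and 106 CPM, and the change of −0.57 just missed the threshold (adjusted p = 0.0556). It was at 56.8, 60.2 and 53.8 CPM in Control_3D, 26.6, 25.8 and 25.1 in SP_3D and 26.1, 31.5 and 12.5 in SP_12D, with changes of −1.14 (adjusted p = 0.00892) and −1.29 (adjusted p = 0.00465; −0.99 without SP_12D R3).

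FOXM1 (ENSG00000111206, chr12:2857680-2877174, minus strand), the forkhead factor that transcribes many of the other members, was at 84.2, 83.0 and 104 CPM in Control_3D and at 36.9, 36.6 and 43.1 in SP_3D. SP_12D gave 39.6, 51.1 and 20.6 CPM, so that every treated library was below every control. The change was −1.22 ± 0.29 at 3 days (adjusted p = 0.00838), to 43.1% of control, and −1.29 ± 0.29 at 12 days (adjusted p = 0.00609; −1.005 without SP_12D R3). On the first day FOXM1 was uneven, at 112, 129 and 183 CPM in Control_24H, 139, 118 and 79.5 in SP_3H and 114, 104 and 106 in SP_24H. The 24 h value of −0.39 ± 0.22 did not pass (adjusted p = 0.216), and after removal of the GC and length trend it was −0.75 (adjusted p = 0.0029). The remaining genes of the switch went separate ways. CCNB2 and CDC25C were lower at 3 and 12 days and CCNB2 also at 24 h. CDK1, the kinase itself, was lower in none of the 4 comparisons but passed at 24 h with the replicate block, with log2 values of −0.13 at 3 h, −0.64 at 24 h, −0.12 at 3 days and −0.37 at 12 days. With the GC and length trend removed its 24 h value was −0.18 (adjusted p = 0.168). With the replicate block and that correction together CDK1 was at −0.17 and did not pass (adjusted p = 0.140). It was at 71.2, 70.9 and 51.5 CPM in Control_3D and 65.1, 61.6 and 51.8 in SP_3D, which overlap.

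CDC25B, the phosphatase that starts CDK1 activation, was the member whose first-day and later values differed most. It was at 238, 276 and 360.4 CPM in Control_24H and 403, 436 and 408 in SP_24H, against 336, 339 and 391 in Control_3D and 237, 239 and 255 in SP_3D. It was lower at 3 days (−0.55 ± 0.10, adjusted p = 0.00021) and at 12 days (−0.53 ± 0.09, adjusted p = 0.00027), while its 24 h value of 0.51 ± 0.21 did not pass (adjusted p = 0.094). In a joint fit of the 18 libraries the 24 h effect exceeded the 3-day effect by 1.01 ± 0.24 (adjusted p = 0.0189), the only such difference among the members. Over all genes 6.28% differed, in either direction. With the GC and length trend removed the 24 h value was 0.01 in place of 0.51, and the difference was 0.87 (adjusted p = 0.00372). Without SP_12D R3 the joint fit called 4 members, CDC25B, PLK1, CENPA and KIF2C, all with a less negative effect at 24 h, against 7.22% of genes.

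**Figure D5:**
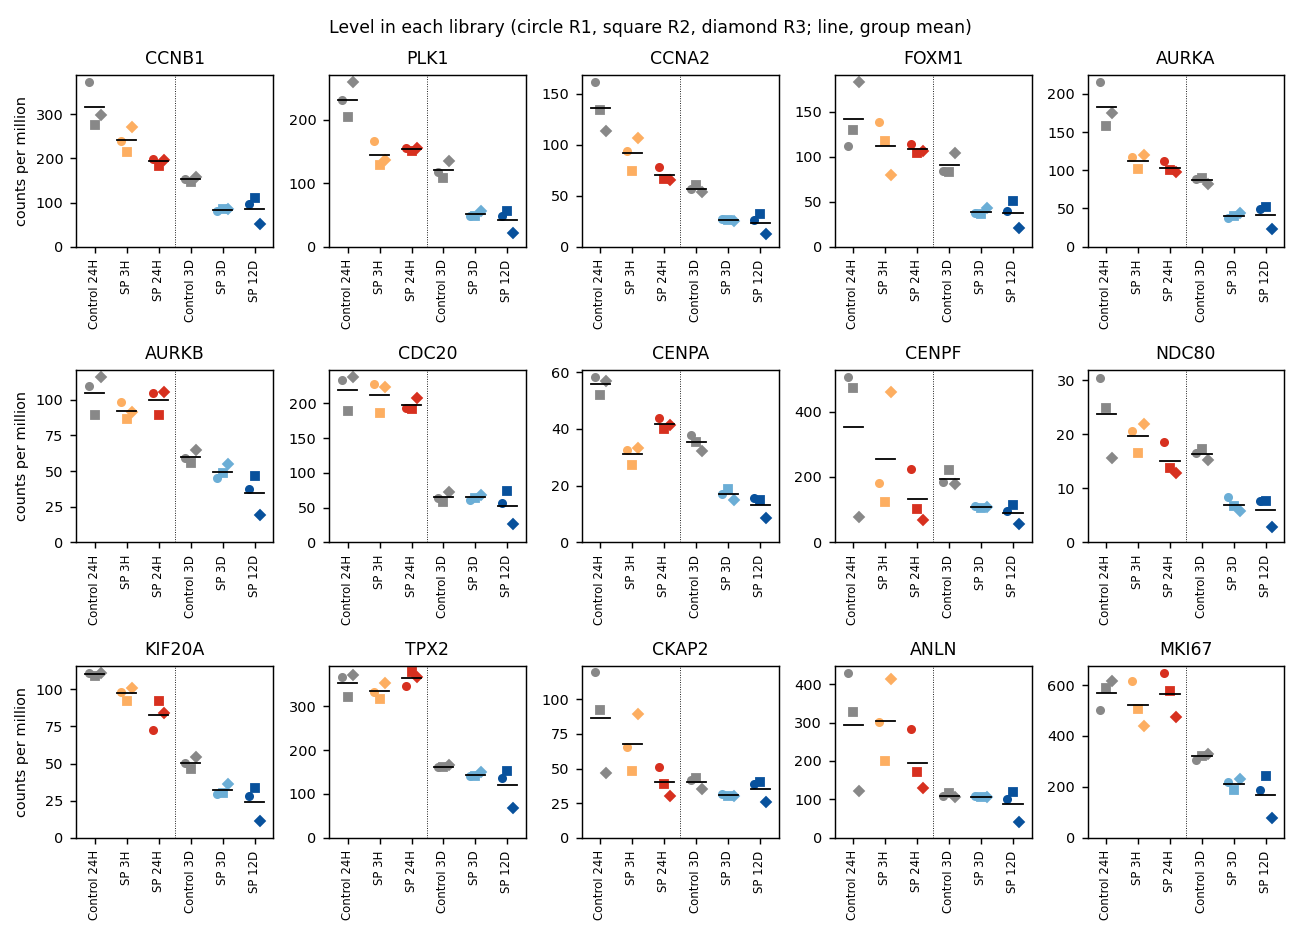
CPM (y axis, from 0) of 15 members in each library of the 6 groups (x axis), with circles for R1, squares for R2, diamonds for R3 and a line at the group mean. PLK1, CENPA, AURKA and FOXM1 lie well below control in SP_3D and SP_12D, CDC20 and ANLN overlap with control at 3 days, and the SP_12D diamond is the lowest of its 9 libraries in every panel.

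Among the Aurora kinases, survivin and NEK2, 1 of 4 was lower at 3 h, 2 at 24 h, 2 at 3 days and 4 at 12 days (4 and 4 at 3 and 12 days without SP_12D R3, with medians of −0.75 and −0.68). AURKA (ENSG00000087586, chr20:56369389-56392337, minus strand), the spindle-pole kinase, was lower throughout. It was at 216, 158 and 176 CPM in Control_24H, 117, 101 and 119.6 in SP_3H and 112, 99.7 and 97.4 in SP_24H. Neither treated group reached the lowest control, and AURKA was at 61.4% of control at 3 h (−0.70 ± 0.13, adjusted p = 0.00899) and 56.2% at 24 h (−0.83 ± 0.13, adjusted p = 0.00176). Later it was at 88.7, 89.3 and 81.9 CPM in Control_3D, 38.0, 39.9 and 43.7 in SP_3D and 48.9, 51.7 and 23.1 in SP_12D, changes of −1.10 (adjusted p = 0.00789) and −1.08 (adjusted p = 0.00811; −0.80 without SP_12D R3). It has 2 annotated pseudogenes, and how shared reads were counted is not given in the sources used here.

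AURKB (ENSG00000178999, chr17:8204733-8210600, minus strand), the Aurora kinase that corrects kinetochore attachments, passed at 12 days only. On the first day it was at 109.8, 89.5 and 116 CPM in Control_24H, 98.6, 86.3 and 91.8 in SP_3H and 105, 89.2 and 106 in SP_24H, which overlap. It was at 59.0, 55.7 and 64.7 CPM in Control_3D and 45.1, 48.4 and 55.1 in SP_3D, where its change of −0.27 ± 0.28 did not pass (adjusted p = 0.453), or passed without SP_12D R3 at −0.28 (adjusted p = 0.00867). SP_12D gave 37.4, 46.7 and 18.8 CPM and a change of −0.81 (adjusted p = 0.0419, or −0.52 without SP_12D R3). With the GC and length trend removed the 12-day change of AURKB was −0.78 and just missed the threshold (adjusted p = 0.0503). BIRC5, survivin, a partner of AURKB at the centromere, was lower at 24 h (−0.53, adjusted p = 0.0129) and at 12 days (−0.84, adjusted p = 0.0287). At 12 days it was −0.56 without SP_12D R3. Its 3-day value of −0.64 (adjusted p = 0.0769) passed without SP_12D R3 or after GC correction (−0.76, adjusted p = 0.043). NEK2, a centrosome kinase, was lower at 3 and 12 days, by −1.19 at the latter (−0.97 without SP_12D R3).

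Of the 7 spindle checkpoint and APC/C genes, 1 was lower at 3 h, 4 at 24 h, 4 at 3 days and 5 at 12 days, and 6 and 6 at 3 and 12 days without SP_12D R3, with medians of −0.67 and −0.59. CDC20 (ENSG00000117399, chr1:43358981-43363203, plus strand), which activates the APC/C, passed in none of the 4 comparisons without GC correction. It was at 233, 189 and 238 CPM in Control_24H, 229, 186 and 224 in SP_3H and 193, 192 and 207 in SP_24H. The 3 groups overlapped, with values of −0.05 at 3 h (adjusted p = 0.864) and −0.15 at 24 h (adjusted p = 0.357), and CDC20 passed at 24 h with the GC and length trend removed (−0.53, adjusted p = 0.0118). At the later times CDC20 was at 63.7, 57.6 and 72.6 CPM in Control_3D, 61.5, 64.2 and 68.5 in SP_3D and 56.2, 73.9 and 26.3 in SP_12D. Only SP_12D R3 lay outside the control range by much, and the log2 values were 0.00 ± 0.32 at 3 days and −0.31 ± 0.32 at 12 days. Without that library they were −0.00 ± 0.089 and −0.00 ± 0.099. UBE2C, the ubiquitin-conjugating enzyme of the APC/C, was lower in all 4 comparisons. With the GC and length trend removed it did not pass at 3 days (−0.68, adjusted p = 0.077). Its group means were 106 CPM in Control_24H, 70.4 in SP_3H and 68.0 in SP_24H, and 49.9 in Control_3D, 29.5 in SP_3D and 27.3 in SP_12D (12-day change −0.88, or −0.59 without SP_12D R3). It has 5 annotated pseudogenes. MAD2L1, a checkpoint protein, and PTTG1, securin, were lower at 24 h, 3 days and 12 days. BUB1, a checkpoint kinase, was lower at 24 h and, without SP_12D R3, at 3 and 12 days. TTK, the kinase that starts the checkpoint, was lower at 3 and 12 days, and BUB1B at 12 days and, without SP_12D R3, at 3 days.

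All 5 kinetochore and centromere genes were lower at 3 days and at 12 days, with or without SP_12D R3, and the medians of −1.05 and −1.35 (−1.06 and −0.99 without it) were the most negative of the 8 role groups. CENPA (ENSG00000115163, chr2:26764289-26801067, plus strand), the histone H3 variant that marks centromeres, passed on the first day. At 24 h NUF2, NDC80 and CENPE passed with the replicate block (adjusted p = 0.00243, 0.0105 and 0.0355), and NUF2 and NDC80 after GC correction. CENPA was at 58.3, 52.2 and 56.8 CPM in Control_24H, 32.7, 27.3 and 33.4 in SP_3H and 43.7, 40.04 and 41.4 in SP_24H. SP_3H was the lowest of the 3 groups without overlap, at 55.8% of control (−0.84 ± 0.11, adjusted p = 0.00206), and SP_24H was at 74.9% (−0.42 ± 0.11, adjusted p = 0.0204). Later it was at 38.0, 35.3 and 32.3 CPM in Control_3D, 17.2, 18.7 and 15.1 in SP_3D and 15.6, 15.1 and 8.37 in SP_12D. The changes were −1.05 ± 0.18 at 3 days (adjusted p = 0.0005) and −1.45 ± 0.19 at 12 days (adjusted p = 4.2e-05), the latter −1.22 without SP_12D R3.

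NDC80, the microtubule anchor of the outer kinetochore, was at 16.5, 17.3 and 15.2 CPM in Control_3D, 8.29, 6.64 and 5.86 in SP_3D and 7.65, 7.58 and 2.88 in SP_12D. The control libraries lay above all treated ones, with changes of −1.24 ± 0.29 at 3 days (adjusted p = 0.00506), to 42.4% of control, and −1.46 ± 0.29 at 12 days (adjusted p = 0.00188; −1.12 without SP_12D R3). On the first day it was at 30.5, 24.9 and 15.7 CPM in Control_24H, 20.6, 16.6 and 21.9 in SP_3H and 18.6, 13.7 and 12.9 in SP_24H, and did not pass at 24 h (−0.65, adjusted p = 0.0725). CENPE, the kinesin of the kinetochore, was lower at 3 days (−1.03, adjusted p = 0.000783) and 12 days (−0.93, adjusted p = 0.00148; −0.73 without SP_12D R3). NUF2, the partner of NDC80, was at −1.07 at 3 days (adjusted p = 0.0264) and −1.35 at 12 days (adjusted p = 0.00941; −0.99 without SP_12D R3). CENPF (ENSG00000117724, chr1:214603185-214664574, plus strand), a large protein of the fibrous corona, showed the first-day unevenness most plainly. It was at 505, 474 and 76.3 CPM in Control_24H, 182, 123 and 462 in SP_3H and 223, 102 and 68.1 in SP_24H, so that its 24 h value of −1.42 carried an SE of 0.75 (adjusted p = 0.182). In the later table it was at 184, 221 and 178 CPM in Control_3D, 109.8, 105 and 108 in SP_3D and 96.4, 115 and 54.6 in SP_12D. CENPF was lower at 3 days (−0.85 ± 0.23, adjusted p = 0.0158) and 12 days (−1.13 ± 0.23, adjusted p = 0.00391; −0.89 without SP_12D R3).

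Of the 6 kinesins, 1 was lower at 3 h, 3 at 24 h, 4 at 3 days and 5 at 12 days, and all 6 at both later times without SP_12D R3, with medians of −0.82 and −0.71. KIF20A (ENSG00000112984, chr5:138178719-138187723, plus strand), a motor of the central spindle, was at 111, 109 and 111 CPM in Control_24H, 98.2, 92.3 and 101 in SP_3H and 72.5, 91.9 and 83.8 in SP_24H. Each treated library lay below the controls, but only the 24 h change passed (−0.42 ± 0.10, adjusted p = 0.0162), and that at 3 h was −0.18 (adjusted p = 0.321). Later it was at 50.3, 46.4 and 54.2 CPM in Control_3D, 29.8, 30.0 and 36.2 in SP_3D and 27.9, 33.4 and 11.2 in SP_12D. Here too the controls lay above all treated libraries. The 3-day change of −0.65 ± 0.34 did not pass (adjusted p = 0.153) and did without SP_12D R3 (−0.66, adjusted p = 8.4e-07). The 12-day change was −1.07 (adjusted p = 0.034; −0.73 without SP_12D R3). KIF4A, a chromokinesin, was lower in all 4 comparisons, from −0.36 at 3 h (adjusted p = 0.0429) to −1.17 at 12 days (adjusted p = 0.0034; −0.91 without SP_12D R3). KIF2C, a microtubule depolymerase at centromeres, was lower from 24 h on, and by −1.34 at 12 days (adjusted p = 0.00207; −1.06 without SP_12D R3). KIF14 and KIF23, motors of the midzone and midbody, were lower at 3 and 12 days. KIF11, the motor that separates spindle poles, was lower at both later times without SP_12D R3 and, with all libraries, at 12 days after GC correction (−0.86, adjusted p = 0.0246).

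Of the 7 spindle-associated proteins, 0 were lower at 3 h by edgeR or DESeq2 (0 also at an unadjusted p under 0.05), 1 at 24 h, 3 at 3 days and 3 at 12 days, and 6 and 5 at the later times without SP_12D R3, with medians of −0.60 and −0.46. TPX2 (ENSG00000088325, chr20:31739271-31801805, plus strand), which activates AURKA on the spindle, passed at 3 and 12 days without SP_12D R3. It was at 367, 321 and 372 CPM in Control_24H, 333, 317 and 352 in SP_3H and 347, 378 and 368 in SP_24H, with log2 values of −0.08 and 0.04. The groups overlapped. At 3 days it was at 162, 161 and 165 CPM in Control_3D and 140.2, 142 and 151 in SP_3D, all below control, a change of −0.17 ± 0.25 (adjusted p = 0.598) that passed without SP_12D R3 at −0.18 (adjusted p = 0.0191). SP_12D gave 136, 153 and 68.6 CPM, at −0.45 (adjusted p = 0.169) or −0.19 (adjusted p = 0.0293) without SP_12D R3.

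CKAP2 (ENSG00000136108, chr13:52455429-52476628, plus strand), a spindle microtubule protein, was the member with the most negative called change at 24 h, −1.11 ± 0.35 (adjusted p = 0.045), yet its groups overlapped. It was at 119.6, 92.5 and 46.7 CPM in Control_24H, 65.9, 48.3 and 89.0 in SP_3H and 51.2, 38.7 and 30.2 in SP_24H. At 3 days it was at 41.5, 43.5 and 35.2 CPM in control and 31.3, 30.1 and 30.4 in SP_3D, a change of −0.39 (adjusted p = 0.0345). With the GC and length trend removed that change was −0.31 and did not pass (adjusted p = 0.0523). At 12 days it was at 38.6, 40.3 and 25.7 CPM, back among the controls but for SP_12D R3, and its value of −0.20 did not pass (adjusted p = 0.242; −0.04 without SP_12D R3). ASPM was lower at 3 days (−0.69, adjusted p = 0.00589) and 12 days (−1.16, adjusted p = 0.000197; −0.99 without SP_12D R3), as was HMMR. CKAP2L was lower at 12 days and, without SP_12D R3, at 3 days, and DLGAP5 at both times without that library and, with all libraries, at 12 days after GC correction (−0.81, adjusted p = 0.0335). NUSAP1 was at 0.847 to 2.31 CPM over the 18 libraries and 86.8% of its exon bases are shared with other annotated genes, so its values are uncertain.

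Of the 3 cytokinesis genes, PRC1, which bundles the midzone, was lower at 24 h (−0.38, adjusted p = 0.0484), 3 days (−0.71, adjusted p = 0.00294) and 12 days (−0.98, adjusted p = 0.000243; −0.76 without SP_12D R3), with 61.9% of its exon bases shared with other annotated genes. ECT2, the activator of RhoA at the furrow, was lower at 3 and 12 days. ANLN (ENSG00000011426, chr7:36389821-36453791, plus strand), anillin of the contractile ring, was not. It was at 108, 117 and 105 CPM in Control_3D, 109, 106 and 105 in SP_3D and 102, 119.7 and 39.8 in SP_12D. Apart from SP_12D R3 the libraries coincided, with log2 values of −0.05 ± 0.070 at 3 days and −0.01 ± 0.078 at 12 days without that library (−0.04 ± 0.35 and −0.34 ± 0.35 with it). On the first day ANLN, of low GC content, was at 429, 329 and 123 CPM in Control_24H, 302, 199 and 414 in SP_3H and 283, 171 and 129.9 in SP_24H, and the SE was 0.46.

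Of the 2 genes of the mitotic chromosome, TOP2A was lower at 12 days and MKI67 at neither later time with all libraries, and both were at 3 and 12 days without SP_12D R3. MKI67 (ENSG00000148773, chr10:128096659-128126423, minus strand), the Ki-67 protein used as a mark of proliferating cells, was at 502, 589 and 615 CPM in Control_24H, 615, 506 and 440.2 in SP_3H and 648, 575 and 474 in SP_24H, with log2 values of −0.13 and −0.01. At 3 days it was at 307, 320.4 and 330.0 CPM in control and 220.4, 189 and 229.8 in SP_3D, and SP_12D gave 187, 243 and 78.6. All treated libraries of the later table lay below its controls. With all libraries the changes did not pass (−0.58 ± 0.35, adjusted p = 0.214, and −0.91 ± 0.35, adjusted p = 0.067), and without SP_12D R3 both were −0.59 (adjusted p = 1.1e-06 and 7.6e-06). With the GC and length trend removed MKI67 passed at 12 days (−1.04, adjusted p = 0.0369). TOP2A is the topoisomerase that untangles sister chromatids. Per kilobase of exons merged over all transcripts of a gene, TOP2A had the highest level of the members in Control_24H, at 164 CPM per kb. CCNB1 followed at 129.9 and CDC20 at 109. In Control_3D CDC25B led at 91.0 CPM per kb, ahead of TOP2A at 75.1 and CCNB1 at 62.8.

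Across times, 8 members were lower in none of the 4 comparisons, which share controls in pairs: ANLN, CDC20, CDK1, DLGAP5, KIF11, MKI67, NUSAP1 and TPX2, and without SP_12D R3 these were ANLN, CDC20, CDK1 and NUSAP1. CDK1 and DLGAP5 passed at 24 h with the replicate block, but with GC correction added to the block only DLGAP5 did (−0.32, adjusted p = 0.0095). Between 24 h and 3 days, which had separate controls, 13 members were lower at both, 81.2% of the 16 lower at 24 h and 48.1% of the 27 lower at 3 days. BIRC5, BUB1 and KIF20A were lower at 24 h and not at 3 days. Without SP_12D R3 the 16 lower at 24 h were all lower at 3 days, 42.1% of the 38 then called. The overlap between these times over all genes is not given here, so these shares do not set the members apart. SP_24H against SP_3H showed 2 members lower, PTTG1 (−0.49, adjusted p = 0.0305) and KIF2C (−0.32, adjusted p = 0.0482), and 1 higher, CENPA (0.42, adjusted p = 0.0260), where 20.1% of all genes differed. SP_12D against SP_3D showed 0 members lower and 0 higher by edgeR, where 8.10% of all genes differed, with 2 at an unadjusted p under 0.05. DESeq2 called 1 member lower, and 778 of 39415 genes over all. Without SP_12D R3, CCNB1 (0.29), AURKA (0.30), CKAP2 (0.35) and KIF14 (0.31) were higher at 12 than at 3 days and ASPM (−0.29) was lower, against 28.1% of genes.

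Other genes of mitosis were taken from lists set by function. Over all genes tested 4.11% were lower at 3 h, 12.0% at 24 h, 23.3% at 3 days and 23.4% at 12 days (29.0% and 27.6% without SP_12D R3). Of 8 condensin subunits, which compact mitotic chromosomes, 1, 2, 4 and 7 were lower at the 4 times from 3 h to 12 days, and 8 and 7 at the later times without SP_12D R3. SMC2 was at −0.77 ± 0.17 at 3 days (adjusted p = 0.0035; −0.78 without SP_12D R3). Of 36 other kinetochore and centromere genes 2 were lower at 3 h and 18 at 24 h, and of the 35 tested later 21 were lower at 3 days and 26 at 12 days (30 and 28 of 36 without SP_12D R3), with SPC25 at −0.85 at 24 h (adjusted p = 0.00226) and SKA1 at −1.19 at 3 days (adjusted p = 0.00656). Of 26 other kinesins and spindle genes 0, 8, 16 and 19 were lower (24 and 21 at the later times without SP_12D R3), among them SPAG5 at 24 h (−0.71, adjusted p = 0.00074) and DEPDC1 at 3 days (−1.40, adjusted p = 0.00198). CIT, citron kinase of the midbody, was at 36.2 CPM in SP_12D and 101 CPM in Control_3D (−1.49 ± 0.23, adjusted p = 0.00078; −1.23 without SP_12D R3). Of 16 other entry kinases, phosphatases and cyclins 0, 5, 7 and 8 were lower (likewise 12 and 11), and of 15 APC/C subunits 0, 6, 6 and 5 (likewise 8 and 5). Of 13 genes of cohesin and its regulators, 9 were lower at 3 days and 9 at 12 days (11 and 9 without SP_12D R3). The 12-day medians of these lists were −0.78 for condensin, −0.73 for the kinetochore list, −0.67 for the kinesin and spindle list, −0.53 for the entry list, −0.18 for APC/C subunits and −0.49 for cohesin, beside −0.00 over all genes. Without SP_12D R3 they were −0.60, −0.52, −0.45, −0.26, −0.12 and −0.39.

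Among regulators of the programme, 5, 4, 9 and 7 of 22 MuvB, B-Myb, E2F and pocket-protein genes were lower at those times, and 1, 1, 0 and 1 were higher (16 and 9 lower at the later times without SP_12D R3). E2F8, a repressor of the E2F family, was lower at 3 h (−0.90 ± 0.22, adjusted p = 0.0288) and at 12 days (−1.14, adjusted p = 0.00146; −0.84 without SP_12D R3). The CDK inhibitors and G2 arrest genes were called in both directions, with 4, 1, 3 and 6 of 12 higher at the 4 times, against 7.39%, 16.8%, 25.2% and 26.4% of all genes, and 1, 1, 3 and 2 lower (without SP_12D R3, 5 and 6 higher and 3 and 4 lower). The 24 h and 3-day counts of higher genes did not exceed the share over all genes. CDKN2D, an inhibitor of CDK4 and CDK6, was at 17.1 CPM in SP_3H and 5.57 CPM in Control_24H (1.63 ± 0.15, adjusted p = 0.00063). CDKN1C, which encodes p57, was higher at 3 h (1.67), 24 h (2.20, adjusted p = 0.000153) and 3 days (2.005, adjusted p = 5.9e-06), from a low level of 0.763 CPM in Control_24H to 3.47 CPM in SP_24H. CDKN1A, which encodes p21, was at 546 ± 87.6 CPM in SP_12D and 128 ± 9.04 CPM in Control_3D (SD, n = 3; 2.09 ± 0.11, edgeR adjusted p = 5.7e-10; 2.20 without SP_12D R3). CDKN2C, another inhibitor, was lower at 12 days by −1.36 (−1.35 without SP_12D R3). Of 41 G1/S and DNA replication genes, 1, 6, 11 and 22 were lower, against 4.11%, 12.0%, 23.3% and 23.4% of all genes, and 1, 0, 2 and 2 higher, with a 12-day median of −0.53 (−0.29 without SP_12D R3). The later counts were 28 and 24 lower without that library. CCNE1, cyclin E, was higher at 12 days (1.25 ± 0.10, adjusted p = 8.9e-08; 1.31 without SP_12D R3). In SP_12D R3 the G1/S list lay at a median of −0.74 log2 CPM from R1 and R2 and was lowest of the 9 libraries for 38 of 41 genes, condensins for 8 of 8, while the A549 markers lay at −0.25.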

How the data were processed

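RNA from A549 cells (6 groups of 3 libraries) was sequenced by the authors, who aligned reads with STAR 2.7.9a to GRCh38, counted them per gene with featureCounts and tested them with DESeq2 1.36.0 under R 4.2.1. The deposited values are raw counts per Ensembl gene. Strand setting and treatment of multi-mapped reads are not given in the sources used here, so values of genes with pseudogenes or overlapping genes are less certain. Groups came from the sample labels. Here each table of 9 libraries was fitted with edgeR 4.0.16 in R 4.3.3 (TMM, filterByExpr with a minimum count of 10, robust quasi-likelihood test), with Benjamini-Hochberg adjustment over the 17377 or 17775 genes tested. CPM of members and listed genes are counts scaled to the summed counts of the tested genes times the TMM factor; cell type markers and shares of reads use the total alone. Log2 CPM used a prior count of 2. GENCODE 44 gave symbols (61369 of 61541 genes), positions, lengths and GC content. The members and lists were chosen with earlier results of these data known. Values in every library are given for 1 fixed gene per role group and the 3 members with the most negative and the 3 with the most positive called change per comparison with a control; from other lists at most the 2 genes with the largest called change. CDC25B, CDK1, ASPM and other members named outside that rule were chosen after their values were seen. DESeq2 1.42.0, other scalings and filters, a GC and length trend (spline with 5 degrees of freedom), the replicate block, a joint fit of 18 libraries and leaving out each library were alternatives. Deviations of same-numbered Control_24H and SP_24H libraries correlated at 0.499, 0.170 and 0.504 across genes, so their numbers were taken as pairs. This is a hint from the data that the labels do not state. It is a weak one, since libraries of different numbers reached 0.175 (Control_24H R3 with SP_24H R2) and 0.576 (Control_24H R1 with SP_3H R3). Same-numbered libraries of the other groups did not all pass 0.1. The scripts were tested on simulated data.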

Additional observations from a re-analysis of the deposited data

Results flagged for a closer look

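The SP effect on CDC25B, the phosphatase that starts CDK1 activation, differed between 24 h and 3 days, by 1.012 on the log2 scale in the joint fit (edgeR adjusted p = 0.0189). Its SP_24H libraries were all above the Control_24H libraries, and its SP_3D libraries all below the Control_3D libraries. Within the SP-treated libraries of the first day, 3 members differed between SP_24H and SP_3H: PTTG1 by −0.4876 (adjusted p = 0.0305), KIF2C by −0.323 (adjusted p = 0.0482) and CENPA by 0.4239 (adjusted p = 0.0260). PTTG1 was at 77.4, 72.1 and 83.0 CPM in SP_3H and 56.1, 52.6 and 57.1 in SP_24H, and KIF2C at 88.1, 85.4 and 94.8 and at 74.3, 68.6 and 71.6, without overlap. CENPA went the other way, from 32.7, 27.3 and 33.4 CPM in SP_3H to 43.7, 40.04 and 41.4 in SP_24H.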

How the results depend on the processing

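Over 32 alternative settings, 195 counts of members stayed within 1.5 times the reported count and 63 did not. Of the values of single members, 1083 were counted as the same in direction and side of the threshold. Another 69 came to pass it, 46 ceased to and 2 were counted as turned in sign. Those 2 were CDC20 at 3 days, with −0.16 under a replicate block with GC correction in 2 groups and −0.18 without SP_12D R3 with GC correction. CDC20 at 3 days, near 0 in the main fit, was also negative in fits not counted there. It was −0.18 with GC correction (adjusted p = 0.670) and −0.002 without SP_12D R3 (adjusted p = 0.986), and passed in neither. Members lower at 3 h were 8 by DESeq2, 8 with GC correction, 3 in a fit of the 2 groups, 0 with a replicate block in 2 groups, 3 with that and GC correction, 11 with a replicate block and GC correction in all groups, and 0 by the study's rule. Over all genes the replicate block in 2 groups called 0 of 16151 lower and 0 higher, so its 0 does not set members apart. Lower genes numbered 1059 of 36979 by DESeq2, 1611 of 17377 with GC correction and 349 of 16151 in 2 groups. With replicate block and GC correction they numbered 508 of 16151 in 2 groups and 1925 of 17377 in all. At 24 h 29 members were lower with a replicate block in 2 groups (1 higher), 33 with GC correction added and 0 by the study's rule. Over all genes the first 2 of these fits called 3108 and 5422 of 17084 lower. Without a filter on low counts 15 members were lower at 3 days and 19 at 12 days, and by the study's rule 0 and 2. Over all genes 3901 and 3913 of 39415 were lower without that filter. For SP_24H against SP_3H the count of lower members was 5 with GC correction or in 2 groups, 10 and 9 with replicate block and GC correction in 2 groups and in all, 0 by the study's rule (0 higher) and 0 with upper-quartile scaling, and 0 members were higher without a filter. Over all genes 2792 of 17377 were lower with GC correction, 2011 of 17110 in 2 groups and 853 of 17377 with upper-quartile scaling. With replicate block and GC correction 3848 of 17110 were lower in 2 groups and 3321 of 17377 in all. For SP_12D against SP_3D 1 member was lower by DESeq2, with GC correction, with a replicate block, or with both, and 2 without a filter. Over all genes 778 of 39415 were lower by DESeq2, 602 of 17775 with GC correction and 893 of 39415 without a filter. In all groups the replicate block called 823 of 17775 lower, and 598 with GC correction added. Without SP_12D R3, 4 members were higher by DESeq2 and 9 higher and 1 lower with GC correction. Over all genes 2143 of 38456 were higher without that library by DESeq2 and 3897 of 18067 with GC correction. For the 24 h effect minus the 3-day effect the count of higher members was 4 without SP_12D R3 (694 of 19164 genes) and 2 in separate fits (1202 of 16654). The median at 3 days was −0.76 with GC correction (−0.76 with replicate block, −0.75 in 2 groups, −0.76 without SP_12D R3). Over all genes the 3-day median was −0.11 in each of these fits, beside −0.02 in the main fit. Leaving out 1 library gave 3 to 7 lower at 3 h (3 without Control_24H R1, SP_3H R1, SP_3H R2 or SP_24H R3), 8 to 30 at 24 h (8 without SP_24H R2, 9 without SP_24H R3, 30 without Control_24H R3) with 0 to 1 higher, 17 to 38 at 3 days (17 without Control_3D R2, 38 without SP_12D R3) and 21 to 37 at 12 days (21 without Control_3D R1 or R3). It gave 0 to 5 lower and 0 to 1 higher for SP_24H against SP_3H, and 0 to 2 and 0 to 4 for SP_12D against SP_3D. Counts over all genes moved as well, as given above for the libraries named. The replicate block moved no other count by over 1.5 times. The causes were not tested. With 3 libraries a group, a member's log2 change had a median SE of 0.205 in the first-day table and 0.264 at 3 days.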
